A study of Mus musculus with 9 samples.

Results

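Transcripts of the RNA polymerase I, II and III machinery were followed in a mouse cell line that is sensitive to rapamycin and in a line made resistant to it. The genes were chosen by name. They are those whose symbol begins with Polr1, Polr2 or Polr3 followed by letters, and 10 factors that load or restrain polymerases I and III (Ubtf, Rrn3, Taf1a, Taf1b, Taf1c, Taf1d, Brf1, Brf2, Bdp1 and Maf1). This gave 35 genes, measured by 74 probe sets, of 18193 genes with a probe set of their own. All 35 lay above the filter on dim probe sets and were among the 12715 genes tested. Total RNA was hybridised to 9 Affymetrix arrays, 3 in each of 3 groups. The sensitive line is BC3H1, a mouse brain tumour line with muscle-like properties, kept in medium with 20% fetal bovine serum. It was given either the solvent DMSO or 100 nM rapamycin for 24 h. The resistant line, RR1, came from BC3H1 cells grown for 6 months in 1 uM rapamycin and was kept in that dose. The 2 rapamycin groups therefore differ in line, dose and exposure, and resistant cells without the drug were not analysed here. RR1 is a single line, so line, drug and long culture cannot be told apart in it. Nothing in the labels names separate cultures for the arrays of a group. The spread behind each p-value is that between arrays and may be technical.

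RNA polymerase I transcribes the precursor of the large ribosomal RNAs in the nucleolus, RNA polymerase II transcribes messenger RNAs, and RNA polymerase III transcribes transfer RNAs, the small ribosomal RNA and other short RNAs. The 3 enzymes share a set of small subunits, polymerases I and III share a further pair, and each has subunits of its own. Rapamycin inhibits mTOR complex 1, a kinase that couples nutrients to growth and is known to promote the activity of polymerases I and III, in part through the initiation factor encoded by Rrn3 and the repressor encoded by Maf1. The arrays measured the messenger RNAs of these proteins, not ribosomal or transfer RNA, and not polymerase activity.

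Signals are linear intensities that the authors scaled to the same trimmed mean on every array, so that RNA per cell was not measured and fewer cells making a transcript cannot be told apart from less of it per cell. The median signal was 66.0 on the third DMSO array, which set it apart from the other 8 (33.4 to 44.2). The control probe sets of Actb gave a log2 difference between the 3-prime and 5-prime ends of 0.33 ± 0.02 (SD, n = 3) on the resistant arrays, 0.17 ± 0.008 on the DMSO arrays and 0.19 ± 0.04 on the sensitive rapamycin arrays. The Actb measure moved with the resistant group. That of Gapdh was -0.29 ± 0.04 on the resistant arrays, -0.31 ± 0.02 on the DMSO arrays and -0.36 ± 0.04 on the sensitive rapamycin arrays. For Gapdh the resistant and DMSO arrays overlapped. The part of either measure in the results below was not tested. Muscle markers moved too. Of 5 smooth muscle markers 4 were above the filter (Myh11 was not). The summed signal of all 5 was 22020 to 30030 on the DMSO arrays, 26980 to 27490 on the sensitive rapamycin arrays and 7174 to 8834 on the resistant arrays. Of 5 skeletal muscle markers 3 were above the filter (Myod1 and Chrng were not), and the sums over all 5 were 1459 to 1618, 1531 to 1717 and 745 to 874 in the same order. These did not move one way: from DMSO to resistant cells the mean signal went from 529 to 15.2 for Chrna1 and from 960 to 656 for Des, but from 6.50 to 98.9 for Myog. The part of these shifts in the results was not tested either. Markers of other cell types were low. The summed signal of the glial and neuronal markers was 156 to 571 on the DMSO arrays, 227 to 281 on the sensitive rapamycin arrays and 79.9 to 114 on the resistant arrays, that of the leukocyte and endothelial markers stayed at or below 120 on every array, and that of the epithelial markers at or below 280.

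In resistant cells most of the polymerase machinery was higher than in sensitive DMSO cells. Calls required a p under 0.05 after Benjamini-Hochberg adjustment over all genes tested, and changes are differences of log2(signal + 16), which understate the change of dim genes. Of the 35 genes 27 were called higher and 1 lower, against 51.8% of all genes called, 25.9% higher and 25.8% lower. The median log2 change was 0.65, beside -0.07 over all genes. Of the 27, 7 rose at least 2-fold on this scale (Polr1b, Polr1c, Polr3a, Polr3e, Polr3f, Polr3g and Bdp1), against 5.45% of all genes, and none fell 2-fold, against 9.99%. The 7 that did not pass were Polr2a, Polr2f, Polr3c, Polr3d, Taf1b, Brf1 and Brf2.

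In sensitive cells 24 h of rapamycin changed fewer of these genes, and in both directions. It raised 4 of the 35 (Polr1c, Polr1d, Polr3gl and Maf1) and lowered 8 (Polr1e, Polr2c, Polr2d, Polr2f, Polr2g, Polr2h, Polr3k and Rrn3), against 35.6% of all genes called, 20.4% higher and 15.2% lower. The median change was -0.01, beside 0.03 over all genes. None of the 35 rose or fell 2-fold, against 2.08% and 3.96% of all genes. Without the third DMSO array 5 were higher and 10 lower. Without the second sensitive rapamycin array 2 were higher, since Polr1d and Polr3gl were then not called.

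Between the 2 rapamycin groups 26 of the 35 genes were higher in the resistant line and 1 was lower, against 56.5% of all genes called, 26.4% higher and 30.1% lower. The median change was 0.65, beside -0.08 over all genes. At least 2-fold higher were 9 genes, Polr1b, Polr1e, Polr2c, Polr2h, Polr3a, Polr3e, Polr3g, Polr3k and Bdp1, against 10.3% of all genes, and none was 2-fold lower, against 13.7%. Each pair of comparisons shares a group of arrays, so their values are given side by side and not as repeats of each other.

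**Figure D1:**
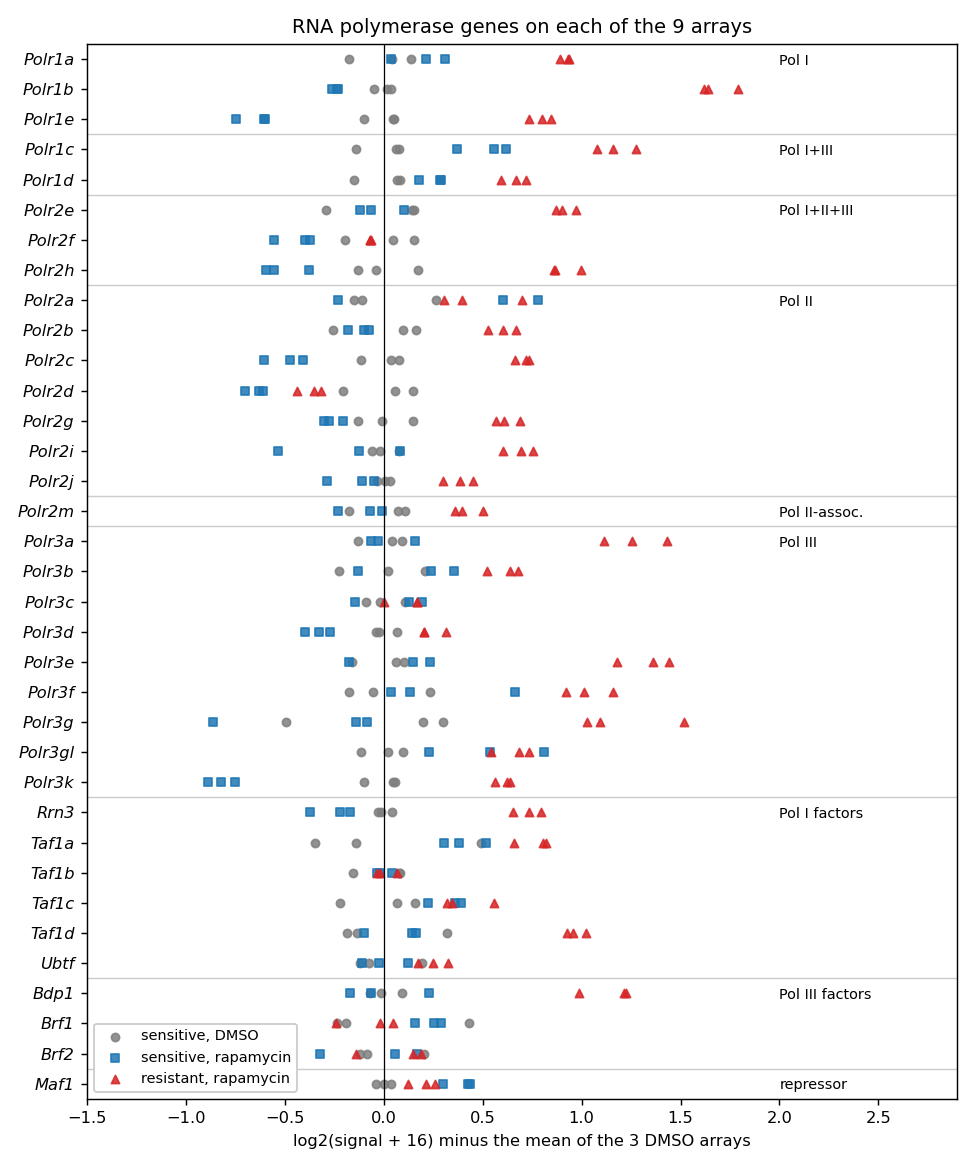
Each row is a gene and each point an array; the horizontal axis is log2(signal + 16) minus the mean of the 3 DMSO arrays, with grey circles for sensitive DMSO cells, blue squares for sensitive cells in rapamycin and red triangles for resistant cells. The red triangles lie to the right of all grey circles for most genes, most of all for Polr1b. For Polr2d they lie to the left, and for Polr2f, Polr3c, Taf1b, Ubtf, Brf1 and Brf2 they overlap the range of the grey circles.

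The subunits that belong to a single enzyme were also summarised by enzyme. Against DMSO cells the median was 0.92 for the 3 polymerase I subunits with a Polr1 symbol (range 0.79 to 1.68). It was 0.65 for the 9 polymerase III subunits with a Polr3 symbol (0.11 to 1.33). For the 7 polymerase II subunits it was 0.60 (-0.37 to 0.71). The lowest of these 3 polymerase I values was 0.79 for Polr1e and the highest polymerase II value 0.71 for Polr2c; with a pseudocount of 64 these bounds were 0.6963 and 0.6939. This order did not extend to every polymerase I subunit under another symbol. Twistnb (0.91 ± 0.09) and Cd3eap (0.83 ± 0.24) lay above Polr2c. Znrd1 changed by 0.49 ± 0.09, below Polr2c, Polr2i, Polr2g and Polr2b. Crcp, a polymerase III subunit under another symbol, changed by -0.10 ± 0.13 (adjusted p = 0.561), below the range given for polymerase III. All medians here leave out the subunits under other symbols. In sensitive cells rapamycin gave medians of -0.24, 0.06 and -0.19 for polymerases I, III and II. Between the rapamycin groups the medians were 1.44, 0.75 and 0.72, while Crcp changed by 0.28 ± 0.13 (adjusted p = 0.0763). No test was made of the differences between these small groups of genes.

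**Figure D2:**
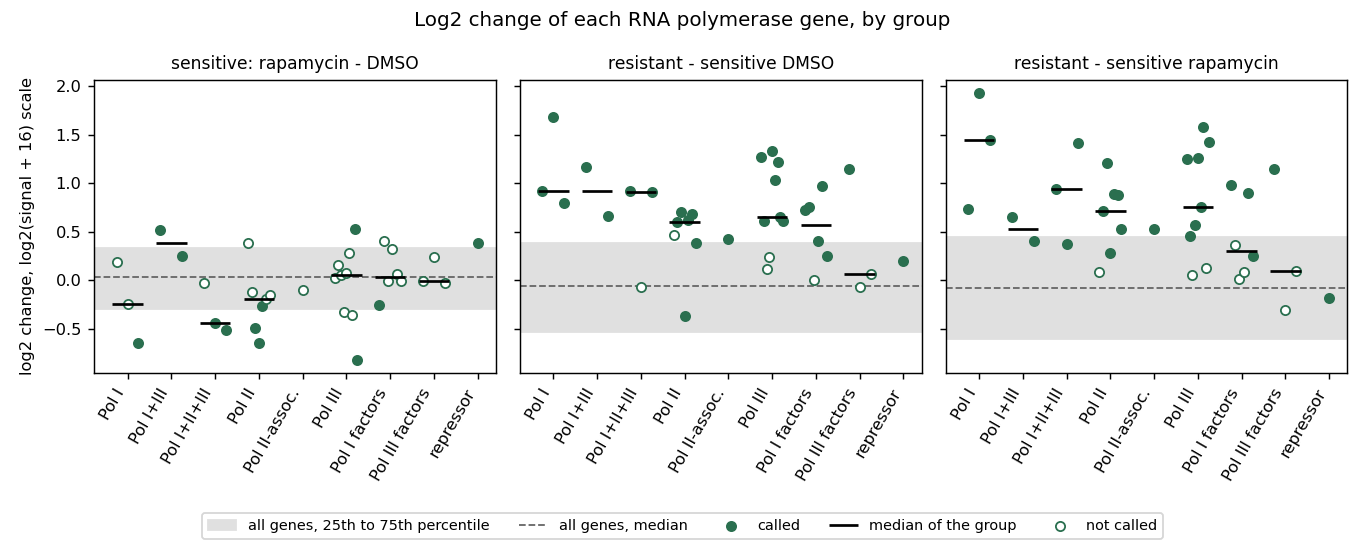
Each point is a gene, placed by its group; the vertical axis is the log2 change in the comparison named above each panel, filled points passed the test, black bars are medians of groups with more than 1 gene and the grey band spans the 25th to 75th percentile of all genes tested. Most points of polymerases I, II and III lie above the band in both resistant comparisons, while the points of the left panel scatter around 0.

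Polr1b, the second largest subunit of polymerase I and part of its catalytic centre, showed the largest resistant change. Its signals were 162, 170 and 173 on the DMSO arrays, 138, 141 and 141 on the sensitive rapamycin arrays and 559, 622 and 552 on the resistant arrays. The resistant arrays lay far above the others, which did not overlap each other either. The log2 change was 1.68 ± 0.12 (standard error, n = 3 arrays per group, as for all changes below; adjusted p = 3.39e-09), a 3.21-fold rise on this scale, while rapamycin in sensitive cells gave -0.24 ± 0.12 (adjusted p = 0.137) and the resistant and sensitive rapamycin groups differed by 1.93 ± 0.12 (adjusted p = 2.59e-10). Without a mean-variance trend in the model the fall in sensitive cells was called (adjusted p = 0.0442).

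Polr1a, the largest polymerase I subunit, had signals of 248, 231 and 197 in DMSO cells, 282, 231 and 263 in sensitive cells with rapamycin and 444, 443 and 431 in resistant cells. The sensitive groups overlapped (0.19 ± 0.12, adjusted p = 0.264), and the resistant line was higher than DMSO cells by 0.92 ± 0.12 (adjusted p = 5.86e-06). When its probe sets were averaged, Polr1a was called higher in rapamycin (0.46, adjusted p = 0.0256), as a dimmer probe set rose by 1.05 ± 0.26 (adjusted p = 0.00526, from the fit of all probe sets) and another by 0.14 ± 0.32 (adjusted p = 0.793). In resistant against DMSO cells these dimmer probe sets gave 1.47 (adjusted p = 0.000157) and 0.40 (adjusted p = 0.348). Against sensitive rapamycin cells they gave 0.43 (adjusted p = 0.197) and 0.25 (adjusted p = 0.567), neither called.

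Polr1e, which forms a dimer on polymerase I that aids initiation and elongation, moved in both directions. It went from 263, 262 and 235 in DMSO cells to 160, 144 and 161 with rapamycin, and stood at 431, 451 and 466 in resistant cells. None of the 3 groups overlapped. The change was -0.65 ± 0.12 with rapamycin (adjusted p = 0.000331) and 0.79 ± 0.12 in the resistant line (adjusted p = 2.34e-05), and a second probe set gave -0.87 and 0.87, both called.

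The factors that bring polymerase I to ribosomal DNA were less uniform. Rrn3, which joins the polymerase to the promoter complex, gave 398, 418 and 402 in DMSO cells, 358, 345 and 309 with rapamycin and 686, 647 and 715 in resistant cells. The groups did not overlap. It was higher in the resistant line by 0.73 ± 0.09 (adjusted p = 4.74e-06) and lower with rapamycin by -0.26 ± 0.09 (adjusted p = 0.043). That fall is small: it was not called without the first or the second DMSO array, the second or the third sensitive rapamycin array, or any single resistant array, where its adjusted p lay between 0.0602 and 0.162, nor with the replicate block (adjusted p = 0.0668).

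Taf1a to Taf1d are subunits of the selectivity complex that binds the ribosomal promoter together with the TATA-binding protein. Taf1d signals were 228, 237 and 331 in DMSO cells, 243, 291 and 294 with rapamycin and 511, 522 and 547 in resistant cells. Only the resistant arrays stood apart, and the change against DMSO was 0.97 ± 0.13 (adjusted p = 9.63e-06); all 7 probe sets of Taf1d above the filter were called higher in that comparison. Taf1a gave 83.8, 70.7 and 139 in DMSO cells, 120, 142 and 127 with rapamycin and 176, 178 and 158 in resistant cells. The third DMSO array lay within the sensitive rapamycin group. The resistant rise was 0.76 ± 0.21 (adjusted p = 0.00616), and the change with rapamycin was 0.40 ± 0.21 (adjusted p = 0.163) but 0.65 without the third DMSO array (adjusted p = 0.00811).

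Taf1c was called higher in the resistant line (0.41 ± 0.15, adjusted p = 0.0351), a call that was lost without the third DMSO array or any one resistant array (adjusted p between 0.0523 and 0.145). Taf1b had mean signals of 202 ± 20.1 (SD), 201 ± 6.14 and 203 ± 8.42 in DMSO, rapamycin and resistant cells, and its largest change was 0.01 ± 0.14. Ubtf, an HMG-box protein that keeps ribosomal genes open, had signals of 710, 688 and 858 in DMSO cells, 693, 735 and 816 with rapamycin and 941, 891 and 845 in resistant cells. The resistant and DMSO arrays overlapped, and the call (0.25 ± 0.10, adjusted p = 0.0381) was lost without the first or the second DMSO array or the first or the second resistant array (adjusted p between 0.0842 and 0.152). When its probe sets were averaged the change was 0.08 (adjusted p = 0.612). Against sensitive rapamycin cells Ubtf gave 0.25 ± 0.10 (adjusted p = 0.0322), lost without the first or the second array of either group (adjusted p between 0.0729 and 0.119).

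Polr1c and Polr1d encode the pair of subunits shared by polymerases I and III, which seeds the assembly of the core enzyme. Both were higher with rapamycin in sensitive cells and higher again in the resistant line. Polr1c signals were 1293, 1279 and 1108 in DMSO cells, 1588, 1888 and 1809 with rapamycin and 2601, 2755 and 2980 in resistant cells. The groups formed 3 separate steps, with changes of 0.52 ± 0.09 for rapamycin (adjusted p = 0.000139) and 1.17 ± 0.09 for the resistant line against DMSO (adjusted p = 4.02e-09). A second Polr1c probe set gave 0.48 and 1.29. Polr1d, among the brightest genes here, had signals of 4687, 4733 and 4028, then 5056, 5459 and 5453, then 6736, 7361 and 7106 in the same order. Its resistant rise was 0.66 ± 0.08 (adjusted p = 2.7e-06) and was called in all 4 of its probe sets, but its rise with rapamycin (0.25 ± 0.08, adjusted p = 0.0239) was called in 2 of the 4. The latter call was lost without the second or the third sensitive rapamycin array (adjusted p = 0.0816 and 0.082), after centring on the 75th percentile (0.126) and with averaged probe sets (0.0665).

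The subunits common to all 3 polymerases went their own ways. Polr2h fell and rose, with signals of 525, 561 and 653 in DMSO cells, 388, 377 and 441 with rapamycin and 1169, 1067 and 1060 in resistant cells. No group overlapped another (-0.51 ± 0.10, adjusted p = 0.000474, and 0.91 ± 0.10, adjusted p = 4.48e-07). Polr2e gave 1382, 1395 and 1017 in DMSO cells, 1148, 1345 and 1197 with rapamycin and 2304, 2348 and 2466 in resistant cells. Here only the resistant line differed (0.91 ± 0.10, adjusted p = 8.86e-07; rapamycin -0.03 ± 0.10, adjusted p = 0.867), and a dimmer Polr2e probe set did not follow it (-0.21, adjusted p = 0.351). Polr2f gave 2238, 2084 and 1754 in DMSO cells, 1365, 1524 and 1551 with rapamycin and 1927, 1919 and 1920 in resistant cells. The resistant arrays fell within the DMSO range (-0.07 ± 0.09, adjusted p = 0.546), while rapamycin lowered it in sensitive cells (-0.44 ± 0.09, adjusted p = 0.000581; -0.41, adjusted p = 0.182, with averaged probe sets).

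Of the 7 subunits that only polymerase II has, rapamycin lowered 3 and raised none in sensitive cells, against 15.2% and 20.4% of all genes. In resistant cells 5 were higher and 1 lower than in DMSO cells, against 25.9% and 25.8%. Polr2c, the polymerase II counterpart of Polr1c, had signals of 2480, 2408 and 2168 in DMSO cells, 1537, 1682 and 1763 with rapamycin and 3875, 3729 and 3912 in resistant cells. It fell by 0.50 ± 0.08 with rapamycin (adjusted p = 5.72e-05), where Polr1c rose by 0.52 ± 0.09, and was higher by 0.71 ± 0.08 in the resistant line (adjusted p = 4.98e-07). The assembly partner of Polr2c, Polr2j, changed by -0.15 ± 0.08 with rapamycin (adjusted p = 0.146) and rose by 0.38 ± 0.08 in resistant cells (adjusted p = 0.000437).

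Polr2d and Polr2g encode the detachable stalk of polymerase II, which contacts the emerging RNA. In sensitive cells both fell with rapamycin, but in the resistant line they stood on opposite sides of DMSO cells. Polr2d was the only one of the 35 genes called lower there, with mean signals of 863 ± 109 (SD, n = 3) in DMSO, 543 ± 18.1 in rapamycin and 661 ± 30.1 in resistant cells, and changes of -0.65 ± 0.09 (adjusted p = 3.62e-05) and -0.37 ± 0.09 (adjusted p = 0.00315). Polr2g gave 2648, 2375 and 2182 in DMSO cells, 1939, 2069 and 1969 with rapamycin and 3555, 3655 and 3872 in resistant cells, without overlap. It rose in resistant cells by 0.62 ± 0.08 (adjusted p = 3.2e-06), and its change with rapamycin, -0.26 ± 0.08 (adjusted p = 0.0138), was not called without the first DMSO array (adjusted p = 0.0904) or without a trend in the model (0.0622). Polr2d was also higher in the resistant than in the sensitive rapamycin cells (0.28 ± 0.09, adjusted p = 0.0185), which was lost without the second sensitive rapamycin array or the second or the third resistant array (adjusted p between 0.0538 and 0.0711).

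The catalytic pair of polymerase II differed in how alike their arrays were. Polr2a, whose long C-terminal tail is phosphorylated during transcription, had signals of 258, 266 and 350 in DMSO cells, 507, 447 and 243 with rapamycin and 479, 361 and 385 in resistant cells. The third sensitive rapamycin array lay below all DMSO arrays and the other two above them, and no comparison was called (rapamycin 0.38 ± 0.20, adjusted p = 0.158; resistant against DMSO 0.47 ± 0.20, adjusted p = 0.0616). Without that array the changes were 0.69 (adjusted p = 0.00258) and 0.47 (adjusted p = 0.00944). The resistant change was also called without the third DMSO array (0.60, adjusted p = 0.0286) or the first sensitive rapamycin array (adjusted p = 0.047), and after centring on the 75th percentile (0.56, adjusted p = 0.0188). A dimmer Polr2a probe set rose with rapamycin (1.05 ± 0.33, adjusted p = 0.0255).

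Polr2b, the second largest subunit, had signals of 1705, 1780 and 1327 in DMSO cells, 1486, 1507 and 1400 with rapamycin and 2422, 2536 and 2298 in resistant cells. The sensitive groups overlapped and the resistant arrays lay above both (0.60 ± 0.09, adjusted p = 3.73e-05). Without the third DMSO array its change with rapamycin was called (-0.25, adjusted p = 0.0102). Polr2i, which supports RNA cleavage by the stalled enzyme, gave 1314, 1278 and 1406 in DMSO cells, 915, 1408 and 1218 with rapamycin and 2167, 2029 and 2253 in resistant cells. Its resistant rise was 0.68 ± 0.11 (adjusted p = 6.48e-05), and without the second sensitive rapamycin array it was lower with rapamycin (-0.33, adjusted p = 0.0276). Polr2m, a protein that associates with polymerase II and makes it depend on Mediator, gave 2132, 2074 and 1744 in DMSO cells, 1682, 1961 and 1880 with rapamycin and 2804, 2542 and 2602 in resistant cells, a resistant rise of 0.42 ± 0.09 (adjusted p = 0.000532).

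**Figure D3:**
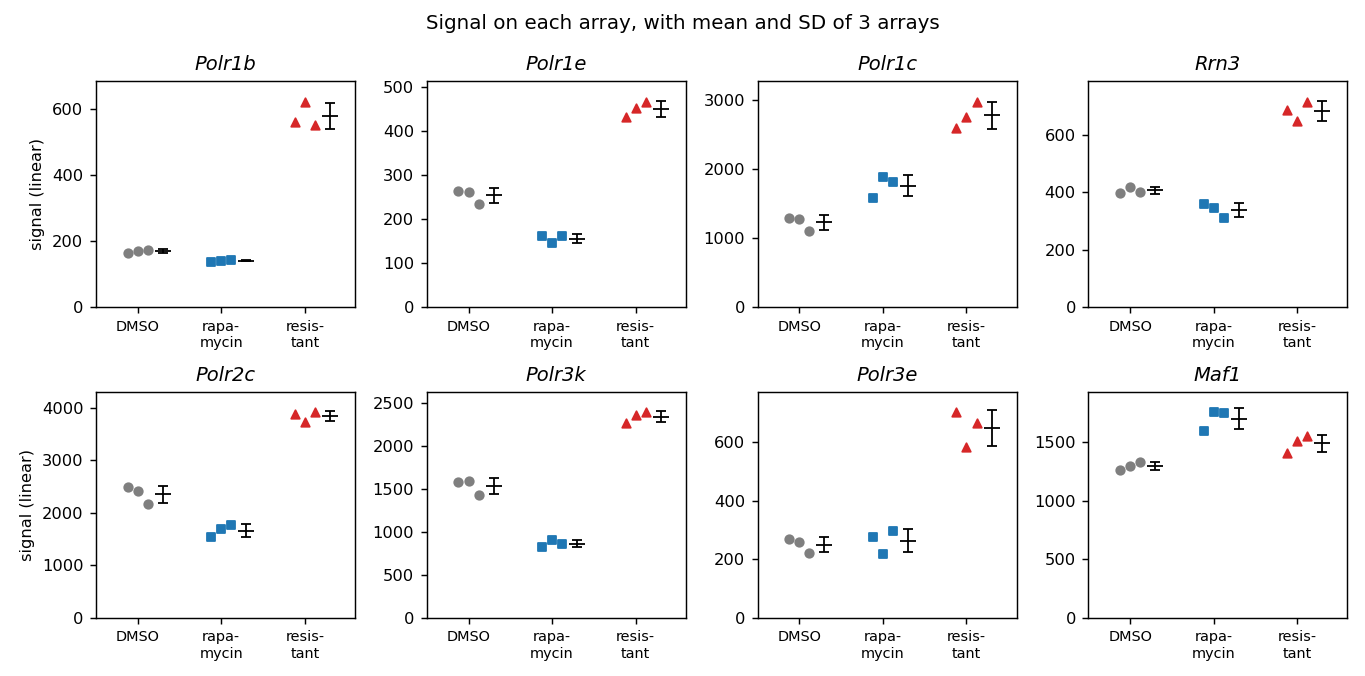
Linear signal of 8 genes on each array, with bars for the mean and SD of 3 arrays beside the points; each vertical axis starts at 0. Polr1e, Polr2c, Polr3k and Rrn3 step down with rapamycin and up in the resistant line, Polr1c steps up in both, Polr3e is raised in the resistant line alone and Maf1 is highest in sensitive cells with rapamycin.

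Of the 9 subunits specific to polymerase III, 7 were higher in resistant than in DMSO cells and none was lower, against 25.9% and 25.8% of all genes. Polr3a gave 226, 266 and 256 in DMSO cells, 279, 237 and 243 with rapamycin and 557, 697 and 616 in resistant cells. The sensitive groups overlapped (0.02 ± 0.12, adjusted p = 0.92), and the resistant rise was 1.27 ± 0.12 (adjusted p = 8.42e-08). Polr3b, its catalytic partner, gave 178, 215 and 246, then 253, 192 and 275, then 339, 348 and 311 in the same order, with a resistant rise of 0.61 ± 0.15 (adjusted p = 0.0023; 0.42, adjusted p = 0.054, with averaged probe sets). Against sensitive rapamycin cells Polr3b was higher by 0.46 ± 0.15 (adjusted p = 0.0144), a call lost without the second sensitive rapamycin or the second resistant array (adjusted p = 0.0914 and 0.0537).

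Polr3e and Polr3d form a dimer used in initiation and termination. Polr3e had signals of 268, 260 and 221 in DMSO cells, 278, 218 and 296 with rapamycin and 703, 583 and 664 in resistant cells. The resistant arrays lay apart, with a change of 1.33 ± 0.13 (adjusted p = 1.23e-07) against 0.07 ± 0.13 for rapamycin (adjusted p = 0.725). A dimmer Polr3e probe set gave 0.74 ± 0.28 in resistant against DMSO cells (adjusted p = 0.0435). Against sensitive rapamycin cells it gave 0.61 ± 0.28 (adjusted p = 0.0902, not called). The partner of Polr3e, Polr3d, gave 230, 216 and 213 in DMSO cells and 179, 163 and 172 with rapamycin. In resistant cells Polr3d gave 255, 276 and 255. The groups did not overlap, yet only the resistant and sensitive rapamycin cells differed by the test (0.57 ± 0.13, adjusted p = 0.00101; rapamycin -0.33 ± 0.13, adjusted p = 0.0556; resistant against DMSO 0.24 ± 0.13, adjusted p = 0.138). After centring on the 75th percentile, under quantile normalization and without a trend in the model both other changes of Polr3d were called (adjusted p between 0.0131 and 0.0443). The fall with rapamycin was also called without the third DMSO array (adjusted p = 0.0451) and with averaged probe sets (0.0116). A second Polr3d probe set of like brightness fell with rapamycin (-0.59 ± 0.20, adjusted p = 0.0355). Neither resistant comparison was called in it: -0.10 ± 0.20 against DMSO (adjusted p = 0.728) and 0.49 ± 0.20 against sensitive rapamycin cells (adjusted p = 0.0533).

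Polr3k, a small subunit that takes part in RNA cleavage and termination, had the largest change with rapamycin in sensitive cells among the 35 genes. It dropped from 1579, 1591 and 1427 to 819, 902 and 858, and stood at 2267, 2362 and 2392 in resistant cells. The 3 groups lay far apart, with changes of -0.82 ± 0.07 (adjusted p = 1.1e-07) and 0.61 ± 0.07 (adjusted p = 1.84e-06). Of its 4 probe sets above the filter 3 were called lower with rapamycin, and the fourth gave -0.16 ± 0.26 (adjusted p = 0.716). In the resistant line against DMSO 3 of the 4 were called higher. The dimmest of them gave 0.23 ± 0.10 (adjusted p = 0.0668).

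Polr3c, Polr3f and either Polr3g or its paralogue Polr3gl make up a trimer that opens the promoter. Polr3g, known from proliferating and embryonic cells, was dim: 45.6, 41.3 and 19.5 in DMSO cells, 11.5, 31.1 and 29.4 with rapamycin and 86.0, 127 and 90.8 in resistant cells. The resistant arrays lay above the others (1.21 ± 0.35, adjusted p = 0.00749; without the second resistant array 1.06, adjusted p = 0.056), and rapamycin gave -0.36 ± 0.35 (adjusted p = 0.468). Its paralogue Polr3gl rose with rapamycin in sensitive cells from 183 ± 15.0 to 274 ± 57.6 (0.53 ± 0.15, adjusted p = 0.0103). In resistant cells Polr3gl stood at 297 ± 21.7. Its change there was 0.65 ± 0.15 against DMSO (adjusted p = 0.00131) and 0.13 ± 0.15 against rapamycin (adjusted p = 0.508). The rise of Polr3gl with rapamycin was lost without the second sensitive rapamycin array (0.38, adjusted p = 0.0716). Whether the 2 paralogues responded differently was not tested. Polr3f rose in the resistant line by 1.03 ± 0.16 (adjusted p = 2.88e-05), from 216 ± 34.3 to 456 ± 39.1, and Polr3c changed by 0.11 ± 0.10 (adjusted p = 0.379), with means of 583 ± 41.5 and 631 ± 42.4 in DMSO and resistant cells.

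Among the loading factors of polymerase III, only Bdp1 was called. It is a part of the TFIIIB complex and is used at every class of polymerase III promoter. Its signals were 246, 256 and 277 in DMSO cells, 306, 228 and 247 with rapamycin and 624, 530 and 627 in resistant cells. The resistant rise was 1.14 ± 0.12 (adjusted p = 4.98e-07), and rapamycin changed it by -0.00 ± 0.12 (adjusted p = 0.984). Brf1, which serves transfer RNA genes, had means of 114 ± 35.4, 133 ± 7.10 and 105 ± 12.3 in DMSO, rapamycin and resistant cells. Brf2, which replaces it at promoters upstream of the gene, had means of 253 ± 34.3, 249 ± 45.0 and 266 ± 33.9. Their changes lay between -0.31 and 0.23, with adjusted p between 0.245 and 0.897.

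Maf1 encodes the repressor of polymerase III, which mTOR complex 1 is known to phosphorylate and keep inactive. It was highest in sensitive cells with rapamycin: 1261, 1296 and 1330 in DMSO cells, 1596, 1754 and 1744 with rapamycin and 1409, 1506 and 1553 in resistant cells. The groups did not overlap. The rise with rapamycin was 0.39 ± 0.07 (adjusted p = 0.000402), and a second probe set of like brightness gave 0.47 (adjusted p = 0.00021). The differences of the resistant line depended on the probe set. Against DMSO it was 0.20 ± 0.07 (adjusted p = 0.0288), and this call was lost without the first or the second DMSO array or the second or the third resistant array (adjusted p between 0.0603 and 0.12). Against sensitive rapamycin cells it was -0.19 ± 0.07 (adjusted p = 0.035), and this was lost without the second or the third sensitive rapamycin array or the first or the second resistant array (adjusted p between 0.0729 and 0.148). After centring on the 75th percentile it was -0.06 (adjusted p = 0.617). The second Maf1 probe set gave 0.10 ± 0.08 against DMSO (adjusted p = 0.34, not called) and -0.37 ± 0.08 against sensitive rapamycin cells (adjusted p = 0.000731).

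Directly against sensitive cells in rapamycin, the resistant line was higher in genes called lower with the drug and in others that were not. Of the first kind, Polr1e was higher by 1.44 ± 0.12, Polr3k by 1.43 ± 0.07, Polr2h by 1.42 ± 0.10, Polr2c by 1.20 ± 0.08, Rrn3 by 0.98 ± 0.09, Polr2g by 0.88 ± 0.08, Polr2f by 0.38 ± 0.09 and Polr2d by 0.28 ± 0.09. Of the other kind, Polr1b was higher by 1.93 ± 0.12, Polr3g by 1.58 ± 0.35, Polr3e by 1.26 ± 0.13, Polr3a by 1.25 ± 0.12, Bdp1 by 1.15 ± 0.12, Polr2e by 0.94 ± 0.10, Taf1d by 0.90 ± 0.13, Polr2i by 0.88 ± 0.11, Polr3f by 0.75 ± 0.16, Polr1a by 0.73 ± 0.12, Polr2b by 0.72 ± 0.09, Polr3d by 0.57 ± 0.13, Polr2j by 0.53 ± 0.08, Polr2m by 0.52 ± 0.09, Polr3b by 0.46 ± 0.15 and Ubtf by 0.25 ± 0.10. Polr1c and Polr1d, which rapamycin had raised, were higher by a further 0.65 ± 0.09 and 0.41 ± 0.08. All of these passed the test, and the sensitive rapamycin arrays enter both sides of this ordering. Taf1a (0.36 ± 0.21, adjusted p = 0.17), Taf1c (0.08 ± 0.15), Polr2a (0.08 ± 0.20) and Polr3c (0.06 ± 0.10) did not pass; Taf1a did after centring on the 75th percentile (adjusted p = 0.0473) and under quantile normalization (0.0269).

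Promoters were searched for the E-box CACGTG, the site bound by Myc and other basic helix-loop-helix factors, because many genes of the machinery were higher in the resistant line together. RefSeq promoters on build GRCm38.p6, each of 300 bases with 250 before the transcription start, were found for 28 of the 35 genes. Polr2d, Polr2g, Polr3a, Polr3d, Brf1, Brf2 and Maf1 had no entry. The motif reads the same on both strands and stood in the promoter of 5 of the 28 genes (17.9%), against 8.09% of all genes with an entry and 7.15% of all promoters. The 5 were Rrn3, Polr3e, Polr3gl, Polr3c and Polr2h. All 5 serve polymerase I or III, as do most of the 28 genes, and Polr2h serves polymerase II as well. The stretches below show the motif in capitals in the 4 genes other than Polr2h, 5′ to 3′ on the strand of the gene.
Rrn3, chr16:13780449-13780698, + strand: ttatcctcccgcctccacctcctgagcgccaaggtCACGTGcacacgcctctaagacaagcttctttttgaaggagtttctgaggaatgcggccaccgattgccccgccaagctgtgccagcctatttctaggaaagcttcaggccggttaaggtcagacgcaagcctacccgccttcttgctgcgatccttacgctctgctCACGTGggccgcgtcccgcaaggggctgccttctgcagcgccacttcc
Polr3e, chr7:120917658-120917789, + strand: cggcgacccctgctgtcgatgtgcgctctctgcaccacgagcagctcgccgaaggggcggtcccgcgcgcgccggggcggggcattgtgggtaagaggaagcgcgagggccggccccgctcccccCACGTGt
Polr3gl, chr3:96594312-96594431, - strand: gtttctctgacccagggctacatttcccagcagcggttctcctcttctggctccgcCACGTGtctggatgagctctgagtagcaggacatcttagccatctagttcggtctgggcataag
Polr3c, chr3:96727570-96727689, - strand: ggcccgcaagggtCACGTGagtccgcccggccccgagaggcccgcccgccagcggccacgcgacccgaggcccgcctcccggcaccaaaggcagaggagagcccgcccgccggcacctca
Rrn3 held it at 2 places, beginning 215 and 48 bases before the start, Polr3gl at 194 and Polr3c at 237 bases before it. In Polr3e it began at the transcribed base 6 and in Polr2h, not printed, at the transcribed base 24. Of these genes Rrn3, Polr3e, Polr3gl and Polr2h were called higher in the resistant line than in DMSO cells and Polr3c was not. Of all 35 genes 77.1% were called higher in that comparison, and a link of the motif to the change was not tested. Polr1b, Polr1c, Polr3f, Polr3g and Bdp1, which rose by more than 1 in log2 units, had no match in this window. A match describes the letters only.

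Further genes of the transcription machinery followed lists set by name, 75 tested genes in all. In the resistant line 42 were higher and 8 lower than in DMSO cells, with a median change of 0.36, against 25.9% of all genes higher and 25.8% lower. With rapamycin in sensitive cells 9 were higher and 27 lower, with a median of -0.11, against 20.4% and 15.2% of all genes. Between the rapamycin groups 44 were higher in the resistant line and 11 lower, with a median of 0.39, against 26.4% and 30.1%. These shares of all genes are the background for each list below, and the lists were not tested as groups. Of 4 polymerase I and III subunits that carry other symbols, 3 rose in the resistant line. These were Twistnb (0.91 ± 0.09, adjusted p = 1.41e-07), Cd3eap, the dimer partner of Polr1e (0.83 ± 0.24, adjusted p = 0.00702), and Znrd1 (0.49 ± 0.09, adjusted p = 0.000117). With rapamycin 3 of the 4 fell: Crcp (-0.37 ± 0.13, adjusted p = 0.0301), Twistnb (-0.30 ± 0.09, adjusted p = 0.012) and Znrd1.

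In the polymerase III list of TFIIIA, TFIIIC, SNAPc and La, 4 of 12 were higher and 1 lower in the resistant line and 4 were lower with rapamycin. Gtf3c2, a TFIIIC subunit, rose by 0.87 ± 0.10 in resistant cells (adjusted p = 5.86e-07), and Gtf3c6, another, was lower in both comparisons with DMSO (-0.50 ± 0.08 in the resistant line, adjusted p = 4.73e-05; -0.38 ± 0.08 with rapamycin, adjusted p = 0.0012). Gtf3a, which brings TFIIIC to the small ribosomal RNA genes, fell with rapamycin (-0.57 ± 0.09, adjusted p = 0.000109). In the list of polymerase I elongation and termination, 3 of 6 were higher and 1 lower in the resistant line. The lower gene was Sirt7, a nucleolar deacetylase that activates polymerase I (-0.96 ± 0.14, adjusted p = 1.09e-05), and Pwp1, a chromatin factor of ribosomal genes, fell with rapamycin by 0.60 and rose in the resistant line by 0.35.

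Of the polymerase II factors, 11 of 17 general factors were higher in the resistant line and 2 lower (Gtf2b and Gtf2f1), 6 of 11 TFIID subunits were higher and 1 lower (Taf1), and 9 of 12 pausing and elongation factors were higher and 2 lower (Supt5 and Ell2); the others did not pass. With rapamycin in sensitive cells 7, 3 and 3 of these lists fell and 1, 1 and 2 rose. Of the general factors, Gtf2f2 (-0.60, a TFIIF subunit) and Gtf2e2 (-0.55, a TFIIE subunit) fell with rapamycin, and Gtf2h4, a TFIIH subunit, rose by 0.91 in the resistant line. Taf2, a TFIID subunit, rose by 1.60 ± 0.12 in the resistant line (adjusted p = 4.76e-09), and Ell2, an elongation factor, was lower by -1.22 ± 0.12 (adjusted p = 9.49e-08). Taf5 (-0.94 ± 0.14, adjusted p = 3.83e-05) and Nelfcd, a subunit of the pausing complex NELF (-0.91 ± 0.10, adjusted p = 1.91e-06), had the largest falls with rapamycin in their lists. Of 9 assembly factors and C-terminal phosphatases 4 were higher and 1 lower in resistant cells, led by the phosphatase Ssu72 (1.23 ± 0.08, adjusted p = 1.47e-09), and rapamycin raised 3 and lowered 3, among them Gpn3, a GTPase that aids import of the polymerase (-0.73). Of 4 genes of mitochondrial transcription 2 were higher in resistant cells, Tfb2m (0.97 ± 0.11, adjusted p = 1.47e-06) and Tfam, and Tfam fell with rapamycin (-0.53 ± 0.08, adjusted p = 5.36e-05).

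**Figure D4:**
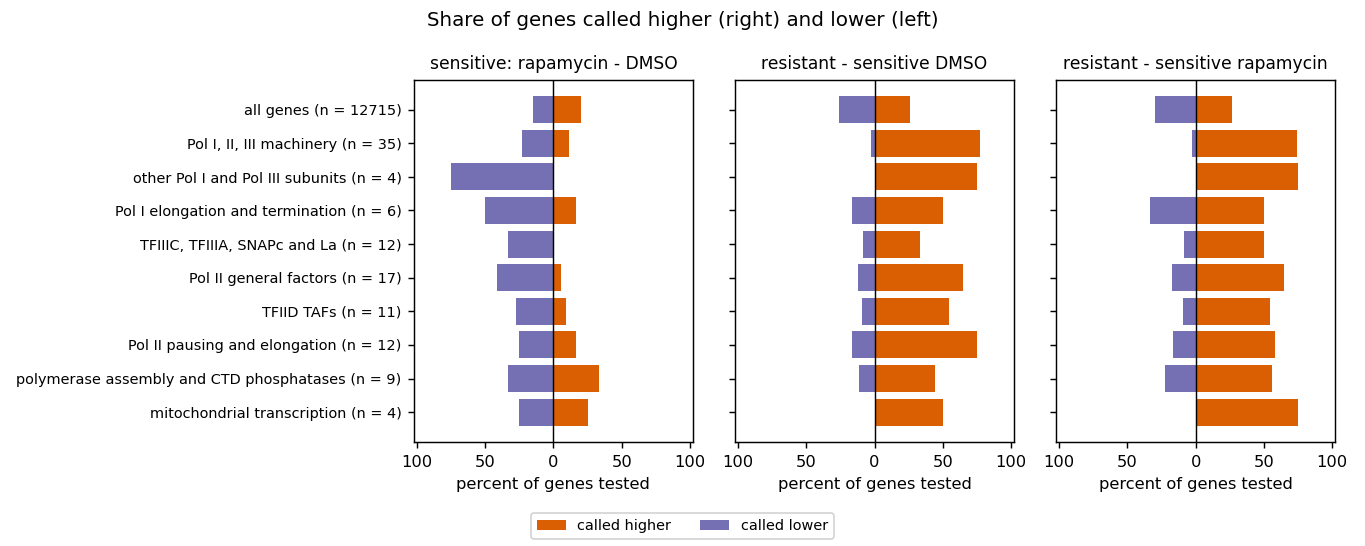
Share of tested genes called higher (orange, to the right) and lower (violet, to the left) in each comparison, for all genes, for the 35 polymerase genes and for 8 further lists. The orange bar of the polymerase machinery reaches 77.1% in the resistant against DMSO comparison, beside 25.9% for all genes.

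Several genes had more than 1 probe set, and 17 of the 35 had at least 2 above the filter. In none of these genes were probe sets called in opposite directions in any of the 3 comparisons. Disagreement took the form of a call in some probe sets and none in others. Examples given above are Maf1, Polr1a, Polr1d, Polr2a, Polr2e, Polr3d, Polr3e and Polr3k.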

How the data were processed

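Each probe set has 1 deposited intensity per array on a linear scale, which the authors obtained with GCOS 1.4, Affymetrix array software, per the submitters' processing notes. How probes were summarised is not given in the sources used here. The trimmed mean, leaving out 2% of values at either end, was 250.0 on every array, as read from the values. Of 45101 probe sets, 64 controls were set aside and 34945 with 1 gene symbol in the platform annotation were used. Values were analysed as log2(signal + 16). The filter kept probe sets whose mean over arrays exceeded the 40th percentile (signal 22.2), and the brightest stood for each gene. Limma 3.58.1 in R 4.3.3 (lmFit, eBayes with a mean-variance trend, all 9 arrays, 3 comparisons) gave changes and Benjamini-Hochberg adjusted p-values over 12715 genes. The fit was tested on simulated data. Groups came from sample titles. Same-numbered arrays did not deviate together (correlations -0.0845 to 0.0151), so no pairing was used. Detection calls and scan batches were not used here, and the number of arrays limits the precision. The 35 genes, the lists and the tests were chosen with earlier results of these data known. Every member is named; values on each array are given for the largest subunits, Ubtf, Rrn3, Maf1 and up to 3 genes of each group with the largest called change, and from the further lists up to 2 called genes per comparison. Polr2k and Polr2l were not analysed here. Promoter sequences are from RefSeq. Alternatives were other scalings, pseudocounts, filters, probe set rules, models and leaving out each array.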

Additional observations from a re-analysis of the deposited data

How the results depend on the processing

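No value of a single gene reversed a called direction in any of 18 alternatives. In the comparison of rapamycin with DMSO 23 of 35 genes kept their call in all 18, in the resistant line against DMSO 28, and between the rapamycin groups 30. The counts of genes called higher in the resistant line against either sensitive group stayed within 1.5 times the reported ones. Leaving out each array in turn gave 2 to 5 genes higher and 6 to 10 lower for rapamycin against DMSO, 23 to 28 higher for the resistant line against DMSO, and 23 to 26 higher and 0 to 1 lower between the rapamycin groups. Centring on the 75th percentile shifted the all-gene median between the rapamycin groups from -0.08 to 0.05. It and eBayes without a trend each left 0 genes lower there (Maf1). Medians of polymerase I, II and III subunits with Polr symbols were taken against DMSO in the resistant line. They were 1.02, 0.69 and 0.75 with that centring and 0.98, 0.51 and 0.76 under quantile normalization. For polymerase I the median was 0.80 with a pseudocount of 64. Between the rapamycin groups they were 1.58, 0.85 and 0.89 with that centring; for polymerase I 1.53 under quantile normalization, 1.23 with a pseudocount of 64, 1.51 with a pseudocount of 4 and 1.59 with the mean of probe sets; and for polymerase III 0.66 with a pseudocount of 64 and 0.53 with the mean of probe sets. For rapamycin against DMSO the polymerase I median was -0.19 with a pseudocount of 64. Leaving out arrays gave polymerase I medians of 0.83 to 0.99 in the resistant line against DMSO, polymerase II medians of -0.29 to -0.13 for rapamycin and polymerase III medians of 0.63 to 0.95 between the rapamycin groups. The order of the medians, polymerase I above III above II, held in every alternative for the resistant line against DMSO. Between the rapamycin groups it did not hold with a pseudocount of 64, with the mean of probe sets or without the first or the third sensitive rapamycin array. Every alternative used the same subunits with Polr symbols. None could show whether the order holds with Twistnb, Cd3eap, Znrd1 and Crcp included. With the replicate number as a block 4 genes were higher and 7 lower for rapamycin, 27 and 1 in the resistant line against DMSO, and 26 and 1 between the rapamycin groups; it ended the call of Rrn3 and no other. Dim genes such as Polr3g are the least precise.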
